A study of Mus musculus with 8 samples.

Results

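The genes described here encode proteins that build, coat or contract actin filaments: the tropomyosins Tpm1, Tpm2 and Tpm4, the filament-capping protein Capg, the monomer-binding proteins Pfn1 and Tmsb4x, the non-muscle myosin Myh9 and the light chain kinase Mylk. They were chosen by name from the authors' deposited table of peaks of N6-methyladenosine (m6A) that differed between Mettl14 knockout and control colonic epithelial cells. A peak is a stretch of RNA enriched by an m6A antibody over the unenriched RNA, called the input. The 8 genes have 1 peak each, so that they hold 8 of the 195 listed peaks and 8 of the 168 listed genes. Being listed means that a peak passed the authors' test of the genotype difference, so the difference itself chose the members and is described below without a test.

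The mice were C57BL/6 at postnatal week 6, and the 8 samples were colonic epithelial RNA without treatment. The knockout mice carried floxed Mettl14 alleles and CDX-cre, and gave 3 m6A immunoprecipitates and 1 input. The control mice carried the floxed alleles without Cre, and gave 3 immunoprecipitates and 1 input. Mettl14 is a subunit of the complex that methylates adenosines of mRNA. The labels name the Cre driver only as CDX, a family of intestinal homeobox genes, and do not say whether replicates came from separate animals. The authors' deposited table gives 1 value per peak over all samples, so the value in each sample, the depth and the spread between replicates are unknown for every member. It does not name the numerator of the log2 fold change. Positive likely means knockout over control, after the usual order of the software whose column names the table carries, and the sign is given as deposited. The listed peaks of the X-linked Xist had values of -2.61, -2.43 and -2.83, and that of its antisense gene Tsix had -2.85. Whether the sexes were balanced between the genotypes was not tested. No input value is given for any peak, and how the single input per genotype entered the log2 fold change is not stated. More m6A per transcript and more transcript therefore cannot be told apart, nor can fewer cells of a type and less RNA per cell.

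Actin filaments grow at one end and shrink at the other from a pool of free monomers. Profilin and thymosin beta hold that pool, capping proteins block filament ends, and tropomyosin lies along the filament as a coiled coil that decides which myosins and severing proteins can bind. Phosphorylation of the myosin light chain by its kinase switches on myosin II, whose pull on actin tenses the ring of filaments at the epithelial cell junctions. Each tropomyosin gene makes several isoforms through alternative promoters and exons.

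In 4 genes the peak covered bases at or right after the transcription start that RefSeq lists (GRCm38.p6, the assembly of mm10, on which all coordinates here are given, counted from 1). These are printed because they show in sequence where the peak meets the listed start, at its 5′ edge in Tpm4, Pfn1 and Tmsb4x and at the edge of its second block in Capg: 50 bases before the start and 30 after it, 5′ to 3′ on the gene's strand, with the bases inside the peak in capitals. The windows are chr8:72135238-72135317 on the plus strand for Tpm4, chr6:72549597-72549676 on the plus strand for Capg, chr11:70654621-70654700 on the minus strand for Pfn1 and chrX:167209189-167209268 on the minus strand for Tmsb4x.
Tpm4: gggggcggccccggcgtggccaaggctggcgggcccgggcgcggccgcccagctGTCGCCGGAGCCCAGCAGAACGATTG
Capg: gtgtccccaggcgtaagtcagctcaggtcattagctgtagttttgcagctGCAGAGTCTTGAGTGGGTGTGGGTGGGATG
Pfn1: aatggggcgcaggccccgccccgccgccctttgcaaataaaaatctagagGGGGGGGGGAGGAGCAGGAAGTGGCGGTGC
Tmsb4x: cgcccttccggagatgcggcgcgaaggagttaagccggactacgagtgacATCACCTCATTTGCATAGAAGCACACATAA

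The peaks of Pfn1 and Tmsb4x began at the listed start itself, 0 nt from it, and that of Tpm4 began 4 nt after it. The Tpm2 peak began 30 nt after its listed start, just past the bases shown for the other genes. In Capg the second block began exactly at the listed start, 0 nt from it, while the first block began 310 nt upstream. The remaining peaks lay far downstream of the listed start, by 5402 nt in Tpm1, 74863 nt in Myh9 and 144939 nt in Mylk. All 8 genes matched a RefSeq start window. The letters GGAC, a common core of the m6A consensus, were searched on the sense strand in the first 50 transcribed bases, where 0 of the 8 genes held them, against 18.9% of all 32851 windows. The CArG box, the site bound by serum response factor at many actin cytoskeleton genes, was searched on both strands of the 300-base window from 250 bases before the start to 50 after it. It was found in 0 of the 8 genes, against 1.63% of all windows. These searches say only that the letters are not in these windows; most bases of the peaks lie outside them.

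The tropomyosins coat actin filaments, and their 3 listed peaks all had positive values in the authors' deposited table. Tpm2, the beta tropomyosin, had the largest of these, a log2 fold change of 1.20 (2.30-fold, FDR 0.0012, enrichment over input 11.2-fold). Its peak lay on chromosome 4, 43519240 to 43523524, minus strand. Tpm4, a form common in non-muscle cells, had 0.75 in that table (1.69-fold, FDR 0.020, enrichment 4.71-fold), on chromosome 8, 72135292 to 72144710, plus strand. For Tpm1, the alpha tropomyosin of muscle and non-muscle cells, the table gives 0.55 (1.46-fold, FDR 0.0051, enrichment 2.26-fold), on chromosome 9, 67032532 to 67043811, minus strand. The order of the paralogs was thus Tpm2, Tpm4, Tpm1 for the genotype difference and the same for the enrichment. No spread is known by which to say whether neighbours in this order differ. The order by strength of evidence for the peak was another: the authors' log10 p-value of enrichment was -77.5 for Tpm4, the 10th strongest of the 195, against -29.9 for Tpm1 and -28.2 for Tpm2. Tpm3, the remaining tropomyosin gene, had no listed peak, which means either that no peak was tested or that it did not pass.

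The tropomyosin peaks shared part of their block structure. Read in the direction of transcription, each contained a block of 134 nt followed directly by a block of 118 nt. No other peak of the 195 had this pair, and only these 3 held a block of 134 nt at all, while 5 held one of 118 nt. As background, tropomyosin genes descend from a common ancestor and have kept the lengths of several internal exons. A shared pair is thus likely to mark matching exons of the paralogs, which was not checked against an exon annotation. The pair adds up to 252 nt and made up 56.4% of the spliced peak in Tpm4, 44.4% in Tpm1 and 35.0% in Tpm2. The gaps around it differed widely. The gap between the blocks of the pair was 104 nt in Tpm2, 2001 nt in Tpm1 and 4728 nt in Tpm4, and the gap before the pair was 2930 nt, 7449 nt and 3134 nt in the same order. After the pair came a block of 71 nt and a last one of 10 nt in Tpm1, a last block of 58 nt in Tpm2 and a last block of 33 nt in Tpm4. A first or last block stops where the peak stops, so its length need not be that of a whole exon.

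The paralogs differed in what came before the pair. Tpm2 had a first block of 284 nt and a second of 126 nt, together 410 nt, and began 59 nt from the 5′ end of its RefSeq gene span. Tpm4 had a single block of 162 nt there and began 4 nt from the 5′ end of its gene. Tpm1 also had a single block, of 234 nt, but it began 5861 nt into the gene. In these data the Tpm1 peak therefore held no block near the gene's 5′ end, where its longer transcripts start, and the Tpm2 peak held 1 block more before the pair than the others. Which isoforms the reads came from was not tested. The summed block length was 720 nt in Tpm2, 567 nt in Tpm1 and 447 nt in Tpm4, against a median of 481 nt over all listed peaks.

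**Figure D1:**
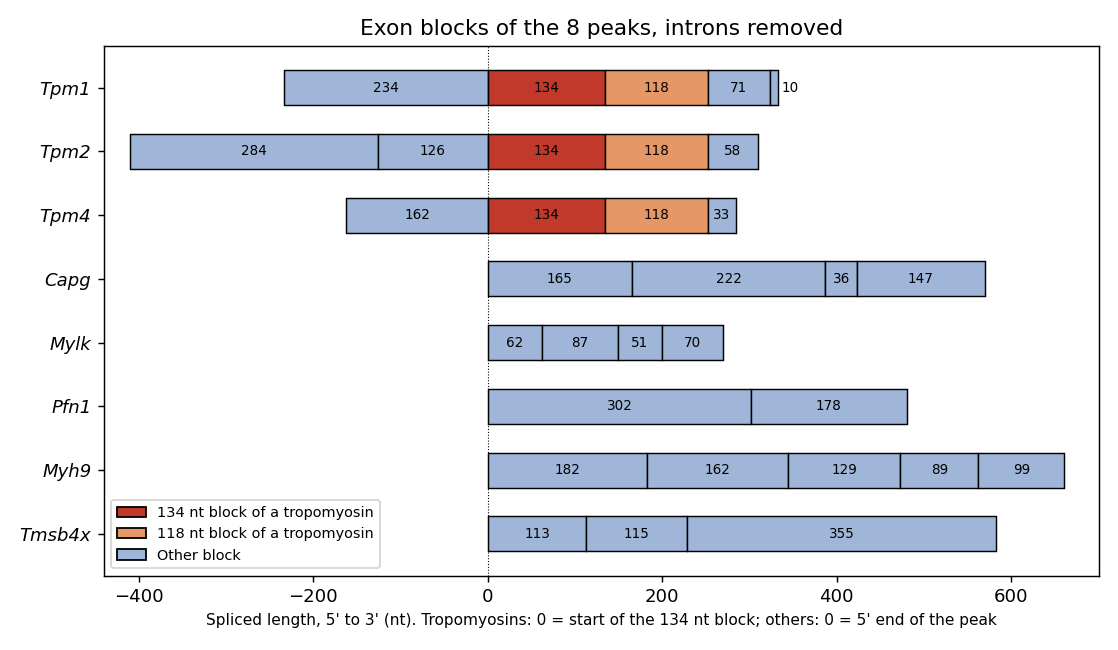
Exon blocks of the 8 peaks with the gaps between them removed, in nucleotides and in the direction of transcription. The tropomyosin peaks are aligned at the start of their 134 nt block (0), the other peaks at their 5′ end. The 134 nt and 118 nt blocks follow each other in Tpm1, Tpm2 and Tpm4 and in none of the other 5 peaks.

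Capg had the largest values of the set. It caps the barbed ends of filaments and is abundant in macrophages as well as in some epithelia. In the authors' deposited table its log2 fold change was 1.43 (2.69-fold, FDR 0.0014) and its enrichment over input was 42.9-fold, the 12th highest of the 195 peaks. The peak lay on chromosome 6, 72549337 to 72555623, plus strand, in blocks of 165, 222, 36 and 147 nt. The next most enriched member, Tpm2, had 11.2-fold, so Capg stood apart from the other 7 in enrichment more than in genotype difference.

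The pair of proteins that hold actin monomers had small and closely similar values. Pfn1 encodes profilin, which feeds monomers to growing filament ends, and Tmsb4x encodes thymosin beta 4, which sequesters them. The authors' deposited table gives Pfn1 a log2 fold change of 0.48 (1.39-fold, FDR 0.031, enrichment 2.46-fold), on chromosome 11, 70652802 to 70654650, minus strand. It gives Tmsb4x 0.45 (1.37-fold, FDR 0.029, enrichment 1.93-fold), on chromosome X, 167207181 to 167209218, minus strand, the lowest positive difference of the 8. Both are short genes. The Pfn1 peak spanned 37.3% of a gene span of 4956 nt and that of Tmsb4x 31.9% of 6387 nt, gaps included. The longer tropomyosin genes gave 41.6 to 52.8%. These shares depend on where the gene is taken to begin. From the listed start to the 3′ end Pfn1 measures 2807 nt and Tmsb4x 2126 nt, of which the peaks span 1849 and 2038 nt. Counted so, both shares exceed those of the tropomyosins. The Pfn1 peak, with blocks of 302 and 178 nt, ended 958 nt before the 3′ end of the gene. In Tmsb4x the peak had blocks of 113, 115 and 355 nt and ended 88 nt from the 3′ end of the gene, the closest of the set. The 355 nt block made up 60.9% of the Tmsb4x peak. Thymosin beta 4 has processed copies elsewhere in mammalian genomes, and the sources used here do not say how reads that match several places were treated.

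The myosin arm gave 1 small and 1 larger value. Myh9, the heavy chain of non-muscle myosin IIA, had 0.46 in the authors' deposited table (1.38-fold, FDR 0.023), with the lowest enrichment of the 8, 1.76-fold, and the weakest log10 p-value for the peak, -14.6. Its 5 blocks of 182, 162, 129, 89 and 99 nt lay on chromosome 15, 77764325 to 77767312, minus strand, with a midpoint at 93.6% of the gene span, the farthest downstream of the set. Mylk, the kinase that phosphorylates the myosin light chain, had 1.22 (2.33-fold, enrichment 5.83-fold). Its FDR of 0.039 was the closest of the members to the 0.05 at which the authors' list ends; peaks beyond that are not analysed here. The Mylk peak was the narrowest of the 8 and the one with the longest reach. It summed 62, 87, 51 and 70 nt, 270 nt in all, over 23760 nt of genome on chromosome 16, 34929889 to 34953648, plus strand, with gaps of up to 13766 nt. Mylk makes a long and a short kinase and a small non-kinase protein from separate starts in one gene of 257238 nt, and the peak began 184690 nt into that gene.

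**Figure D2:**
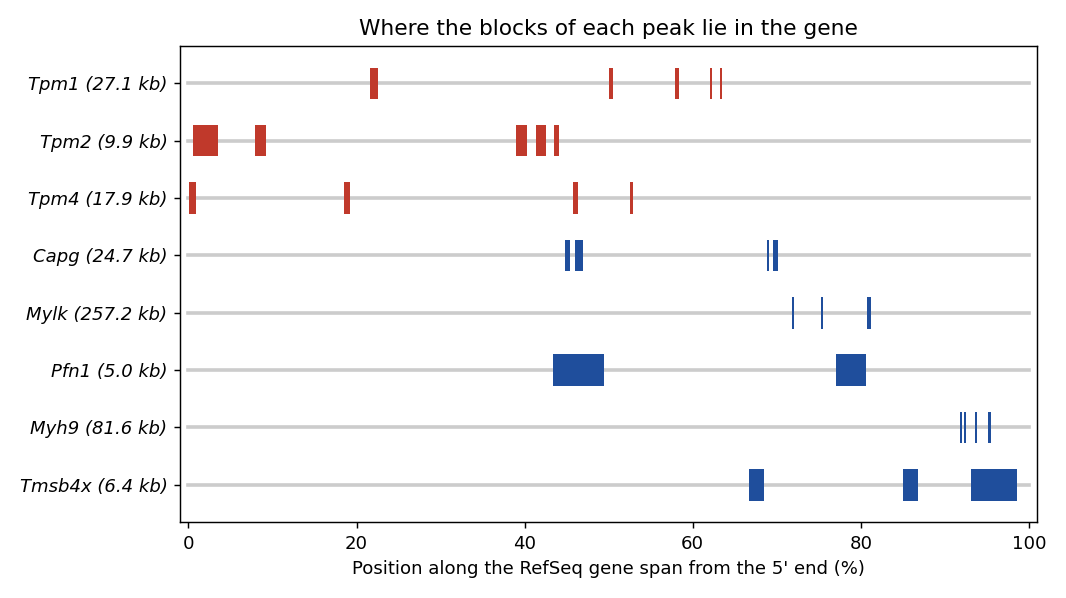
Blocks of the 8 peaks along their RefSeq gene spans, as percent of the span (0 is the 5′ end), with gene length in kb beside each name; tropomyosins in red, the other members in blue. The midpoints of the tropomyosin peaks lie at 22.3 to 42.5% of the span and those of the other 5 at 57.5 to 93.6%; counted from the listed starts, which are not drawn, the groups overlap.

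Where a peak lay in its gene depended on where the gene is taken to begin. Counted from the 5′ end, the midpoint of the peak was at 22.3% of the gene span in Tpm2, 26.4% in Tpm4 and 42.5% in Tpm1. It was at 57.5% in Capg, 62.0% in Pfn1, 76.4% in Mylk, 82.7% in Tmsb4x and 93.6% in Myh9, so the groups did not overlap on this scale. The median over all listed peaks was 65.7% and that over positive peaks 46.7%. Gene spans include introns and every annotated alternative start, so this is no position in a mature mRNA. The spans of Capg, Pfn1 and Tmsb4x begin 11055, 2149 and 4261 nt upstream of the peak. In Pfn1 and Tmsb4x the peak begins at the listed start. In Capg it begins 310 nt upstream of the listed start, and its second block begins at that start. Counted from the listed start to the 3′ end of the gene, an alternative added after seeing the data, the groups overlapped. The midpoints were then at 22.1% in Tpm2, 26.4% in Tpm4 and 41.5% in Tpm1, against 21.2% in Capg, 32.9% in Pfn1, 47.9% in Tmsb4x, 72.1% in Mylk and 93.6% in Myh9. Position therefore did not set the tropomyosins apart from the other members.

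Nor did the tropomyosins stand apart in genotype difference, enrichment or width. Their log2 fold changes, 0.55 to 1.20, lay within the range of the other 5 members, 0.45 to 1.43. The medians were 0.75 for the tropomyosins and 0.48 for the others, a difference of 0.28 that turned to -0.10 when Myh9 or Tmsb4x was left out of the others and fell to 0.02 between means. Enrichment over input was 2.26 to 11.2-fold in tropomyosins and 1.76 to 42.9-fold in the others, with medians of 4.71-fold and 2.46-fold. Summed width was 447 to 720 nt in tropomyosins and 270 to 661 nt in the others, with medians of 567 and 570 nt.

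Within the authors' deposited table, most members (7 of the 8) had more exon blocks than the median of 2 over the whole list. A smaller difference than that of the median positive peak was seen in 7 of the 8. The exceptions were Pfn1, with 2 blocks, and Capg, whose log2 fold change of 1.43 ranked 58th of the 120 positive peaks. Over positive peaks alone the median was 3 blocks, which Tmsb4x only equalled. All 8 had a log2 fold change above 0, against 61.5% of the list, but the sign belongs to the contrast that listed them and nothing is read from it. A log2 fold change whose size was 1 or more was seen in 3 of the 8, namely Tpm2, Capg and Mylk. This compares with 71.3% of the list and with 76 of the 120 positive peaks. An FDR of at most 0.01 was reached by 3, Tpm2, Capg and Tpm1, against 53.3%. The median log2 fold change of the members was 0.65 (1.57-fold), against 1.36 over the 120 positive peaks and 1.40 over the 82 positive multi-block peaks of other genes. All 8 members had over 1 exon block, against 52.3% of the list, and 7 had at least 3, against 36.4%. The members are all positive, and of the 120 positive peaks 90 had over 1 block and 70 had at least 3. Their median enrichment was 3.59-fold, against 4.43-fold over all listed peaks.

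**Figure D3:**
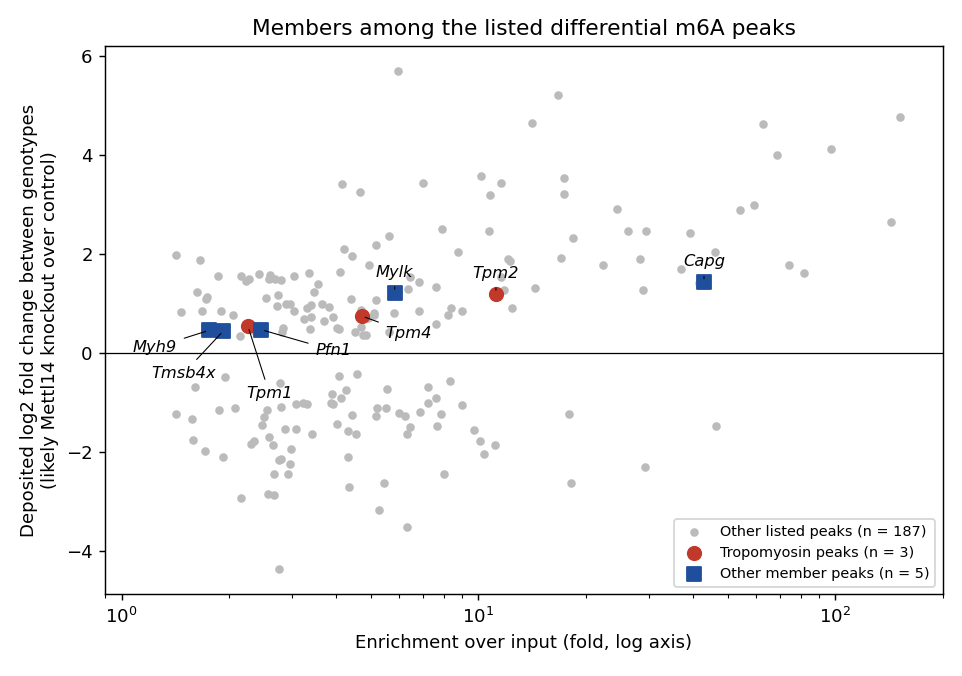
Deposited log2 fold change between genotypes (vertical, likely knockout over control) against enrichment over input (horizontal, fold, log axis) for the 195 listed peaks, 1 point each; red circles are tropomyosins, blue squares the other members and grey points the 187 other peaks. All 8 members lie between 0.45 and 1.43, and Capg lies far to the right of the others at 42.9-fold.

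Within the set, larger differences went with stronger enrichment. The 4 least enriched members, Myh9, Tmsb4x, Tpm1 and Pfn1, were also the 4 with the smallest log2 fold changes. Tpm4 stood in the middle by both measures, and Tpm2, Mylk and Capg were above it by both. Both values rest on the same immunoprecipitates and the peaks were listed for their difference, so this is a description of 8 chosen peaks.

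Of 97 genes on 10 lists of actin cytoskeleton genes, the 8 members were the only ones in the authors' deposited table, all positive, and the other 89 had none. That includes the 6 actins, the 9 tropomodulins, leiomodin, caldesmon and calponins that act on tropomyosin-coated filaments, the 8 unconventional myosins of the brush border, the 16 crosslinkers and membrane linkers such as Actn4, Flna and Ezr, and the 16 genes of nucleation and branching such as Arpc2 and Wasl. One of the 4 myosin II heavy chains and 1 of the 12 light chain, kinase and phosphatase genes were listed, as were 2 of the 11 monomer-binding genes and 1 of the 11 capping and severing genes. The lists are not the whole of the actin machinery. Genes outside them that were also listed, named after their values were seen, include Dapk2, a kinase of the myosin light chain, at 1.34 and the actin-binding Dixdc1 at -1.62. Since the members were taken from the table, the counts show how much of each group is listed and not a shift of the group.

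Several members are strongly expressed outside the epithelium, Tpm1, Tpm2 and Mylk in smooth muscle and Capg and Tmsb4x in macrophages. Of 10 macrophage and leukocyte markers 3 were listed in the authors' deposited table, the complement genes C1qa at 1.92, C1qb at 2.36 and C1qc at 2.47. Of 10 fibroblast and endothelial markers the collagen gene Col1a1 was listed, at 1.61, and of 10 smooth muscle markers such as Des and Myh11 none was, 0 of 10. All 4 values are above those of every member. The part of these cell types in the members' values was not tested. Of 10 markers of colonic epithelium 0 were listed; a table of differences only cannot show whether they were present, so the labelled tissue could not be checked.

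By log2 fold change, log2 enrichment and log2 width together, the peaks of other genes nearest to the members' median were those of Chmp6, Phlda1, H2-D1, Sptssb and Mat2a. The measure was the Euclidean distance over these 3 values, each divided by its SD over the 195 peaks. Chmp6, an ESCRT-III subunit, was closest at 0.14 SD units, with 0.74 and 3.39-fold, and Mat2a, which makes the methyl donor S-adenosylmethionine, was the last of the 5 at 0.20, with 0.98 and 3.40-fold. The 8 members themselves lay from 0.42 for Tpm1 to 2.60 for Capg from their common median. The 5 peaks were picked for the smallest distances of all other peaks, so nothing is read from their being closer than the members. The likeness describes only the median of the members, and nothing about function follows from it.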

How the data were processed

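The 8 samples were grouped by genotype and RNA fraction from their titles. Per the submitters' processing notes, the tools were HISAT2 2.1.0, Trim Galore 0.6.5, R 3.6 and HOMER 4.10.0, on mm10; neither their roles nor the peak caller are stated in the labels. Per the file headers, the authors deposited a p-value, its log10 and the log10 of its FDR for each peak's enrichment (the last pair handled as a score), a fold enrichment, a linear ratio of immunoprecipitate over input, and for the genotypes a log2 fold change with log10 p-value and log10 FDR. FDRs and folds were turned back into linear values here. Blocks were read from the deposited starts and sizes, ordered by strand, and placed on RefSeq gene spans and start windows. Medians, ranks and counts were computed in Python 3.11.15 with pandas 2.3.3 and numpy 2.4.6; figures used matplotlib 3.10.9. No test was run. The block, placement and motif functions were tested on made-up peaks. Depth is unknown, so no precision can be given. The members and the gene lists were chosen with earlier results of these data known. Genes named beside the members are those of the lists with a listed peak, examples of list genes without one, and the 5 nearest peaks. Dapk2, Dixdc1, Xist and Tsix fall under none of these and were named after their values were seen. Alternatives were an FDR of 0.01, an absolute log2 fold change of 1, other widths, positions and strength measures, 1 value per gene, and other backgrounds.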

Additional observations from a re-analysis of the deposited data

How the results depend on the processing

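Of 18 alternatives, 14 planned and 4 added after seeing the data, 5 were labelled the same. The rule was an unchanged value, a count within 1.5 times, or a share of positive peaks inside its exact binomial confidence interval. Taking 1 value per gene could change nothing, as each gene has 1 peak. Measures in another unit, such as -log10 p-value or linear fold, were labelled moved whatever their value. The tally is therefore no measure of robustness. The median log2 fold change of the members, 0.65, was 1.20 over the 3 with an FDR of at most 0.01 and 1.22 over the 3 with an absolute value of at least 1, where fewer peaks pass by construction; the number of positive members was then 3 at that FDR. Other measures gave a median -log10 p-value of enrichment of 31.4, a median log2 enrichment of 1.77, a median genomic span of 5286 nt in place of 569 nt of blocks, and a median of 6437 nt from the 3′ end of the gene in place of a midpoint at 59.7% of the span. Counted from the listed start, the median midpoint was at 37.2%. The median difference between the tropomyosins and the other members was 0.29 as linear folds and 0.024 between means, and reversed to -0.10 without Myh9 and to -0.10 without Tmsb4x, since the median of the other 4 then lies between Pfn1 and Mylk. Positive peaks made up 88.2% of peaks with over 1 block, against 61.5% of the list. No paired analysis was possible because no sample has a value of its own in the file, so no replicate was left out either.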
